A study of Mus musculus with 4 samples.

Results

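Calmodulin, calcium/calmodulin-dependent kinase II (CaMKII) and the phosphatase calcineurin are followed here through 9 genes in the adult mouse heart, Calm2, Calm3, Camk2d, Ppp3ca, Ppp3cb, Rcan1, Rcan2, S100a1 and Sri. They were chosen by name, and each name has a single entry among the 55401 genes of the deposited expression table. All 9 had a mean transcript abundance of at least 1 TPM, a unit that corrects for transcript length and library total, and were therefore among the 10036 genes tested. The hearts came from wild-type mice and from Ctcf heterozygous mice (Ctcf +/R567W), 2 libraries of each, all at 8 weeks of age. The substitution R567W in CTCF, a zinc finger protein that organises chromatin loops, had been introduced with CRISPR/Cas9 into C57BL/6N mice, and heterozygous animals keep a wild-type copy of Ctcf in every cell. The comparison asks how the level of these genes differs between the genotypes, and each value rests on 1 library of polyA RNA from heart tissue.

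In cardiac muscle, calcium enters through the L-type channel at each beat and releases more calcium from the sarcoplasmic reticulum. Calmodulin binds this calcium and switches on CaMKII, which phosphorylates channels and calcium-handling proteins, and calcineurin, which dephosphorylates NFAT transcription factors so that they enter the nucleus. Both enzymes are known for their part in cardiac growth and in arrhythmia. The RCAN proteins bind calcineurin and restrain it, while S100A1 and sorcin are EF-hand calcium sensors that act on the ryanodine receptor and on calcium uptake.

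Calm2 (chromosome 17, 87433412 to 87446935, build mm10) and Calm3 (chromosome 7, 16915379 to 16924114) encode the same calmodulin protein from separate places in the genome. Their coding sequences are shown because they specify that protein with different bases, which is what lets reads be divided between them. The first 150 coding bases in the GENCODE M21 transcripts follow, with capitals at each base that differs between the pair.
Calm2: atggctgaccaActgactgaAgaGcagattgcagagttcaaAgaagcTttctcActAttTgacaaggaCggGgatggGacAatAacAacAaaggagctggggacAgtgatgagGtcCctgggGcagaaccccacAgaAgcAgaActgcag
Calm3: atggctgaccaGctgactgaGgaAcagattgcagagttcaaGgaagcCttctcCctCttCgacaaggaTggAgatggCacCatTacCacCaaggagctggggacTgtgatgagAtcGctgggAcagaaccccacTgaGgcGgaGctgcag
Of these 150 bases 23 differ, and of all 447 coding bases 78 do, whereas 0 of 149 codons specify a different residue. The genes thus share 82.6% of their coding bases, and the longest coding stretch common to both is 17 bases, so any longer coding read holds a base that differs. Processed pseudogenes are closer copies. Gm15720 is 98.2% identical to the Calm2 transcript and was listed at 2.36 TPM in heterozygous library 1 and at 0 in the other libraries, while Gm7308 and the Calm3 copy Gm5881 were listed at 0 throughout. None of the 9 genes shares exonic bases with another gene of that annotation.

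TPM of every library add to the same total, and the deposited values were therefore divided by a median-of-ratios factor for each library (1.09 and 1.26 for wild-type 1 and 2, 0.818 and 0.903 for heterozygous 1 and 2). Levels below are these scaled TPM, given in the same order of libraries, and fold changes are limma coefficients on log2(scaled TPM + 1), heterozygous minus wild-type. On this scale the median of all tested genes was -0.00. On the deposited TPM it was -0.35, and it was -0.31 when genes of the mitochondrial genome (mt-) were left out and TPM rescaled. Each of the 9 genes is therefore also given relative to that median over the scalings tried. Apart from quantiles, these scalings divide each library by a constant. The distance to the median is then nearly fixed by construction, moving mainly through the pseudocount, and is no check on the direction of a difference. The mt- genes held 64.7%, 61.1%, 68.6% and 62.6% of the TPM in the 4 libraries, and the read depth is unknown because TPM do not keep it. Ctcf itself averaged 6.07 ± 0.0689 over the wild-type and 6.63 ± 1.24 over the heterozygous libraries (SD, n = 2 each). Its log2 fold change of 0.10 had an adjusted p of 0.814 from limma and turned to -0.29 on the deposited TPM and -0.21 without mt- genes, and neither allele can be read separately.

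All 7 cardiomyocyte markers were above 0 in every library. Their summed scaled TPM were 24134 to 24829 in wild-type and 20777 to 25334 in heterozygous hearts, the lowest sum being that of heterozygous 1. Most of each sum came from Myh6 and Myl2. Of the 7 markers, Actc1, Myl2 and Myl3 were lower in both heterozygous hearts, at log2 fold changes of -0.46, -0.39 and -0.44. The other 4 overlapped, with Myh6 at 0.08, Tnnt2 at -0.18, Tnni3 at 0.04 and Nppa at 0.95. The 4 atrial markers summed to 806 and 2354 in wild-type and to 1918 and 3281 in heterozygous hearts. Nppa is counted in both the cardiomyocyte and the atrial sum, at 393 and 1204 in wild-type and 1012 and 1739 in heterozygous hearts. The 5 erythroid markers summed to 930 and 987 in wild-type and to 965 and 2120 in heterozygous hearts. The sum of the 6 endothelial markers was slightly lower in both heterozygous hearts (68.4 and 73.1) than in the wild-type hearts (75.1 and 76.9). Singly, Pecam1 and Kdr were lower in both heterozygous hearts, Tie1 was higher in both, and Cdh5, Tek and Emcn overlapped. The sums of 6 fibroblast, 6 mural and 6 macrophage markers overlapped between the genotypes. Sums of adipocyte, skeletal muscle and neural markers reached at most 0.478, 3.24 and 4.42, with Myh4 and Myh1 at 0 in all libraries. The part of these differences in the results below was not tested, and in bulk tissue fewer cells of a type and less RNA per cell cannot be told apart.

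Within the set, S100a1 was by far the most abundant transcript. It made up 78.1% and 79.2% of the summed TPM of the 9 genes in wild-type hearts and 69.3% and 73.9% in heterozygous hearts. In wild-type hearts the order was S100a1, Calm2, Sri, Camk2d, Ppp3cb, Rcan2, Calm3, Ppp3ca and Rcan1, and no pair of neighbours in it overlapped between the libraries. In heterozygous hearts Sri and Camk2d overlapped, as did Rcan2 and Calm3, and Ppp3ca stood above Calm3 in both libraries. Measured per length, calmodulin transcripts of Calm2 were thus more abundant than those of the kinase gene Camk2d or of either phosphatase gene.

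**Figure D1:**
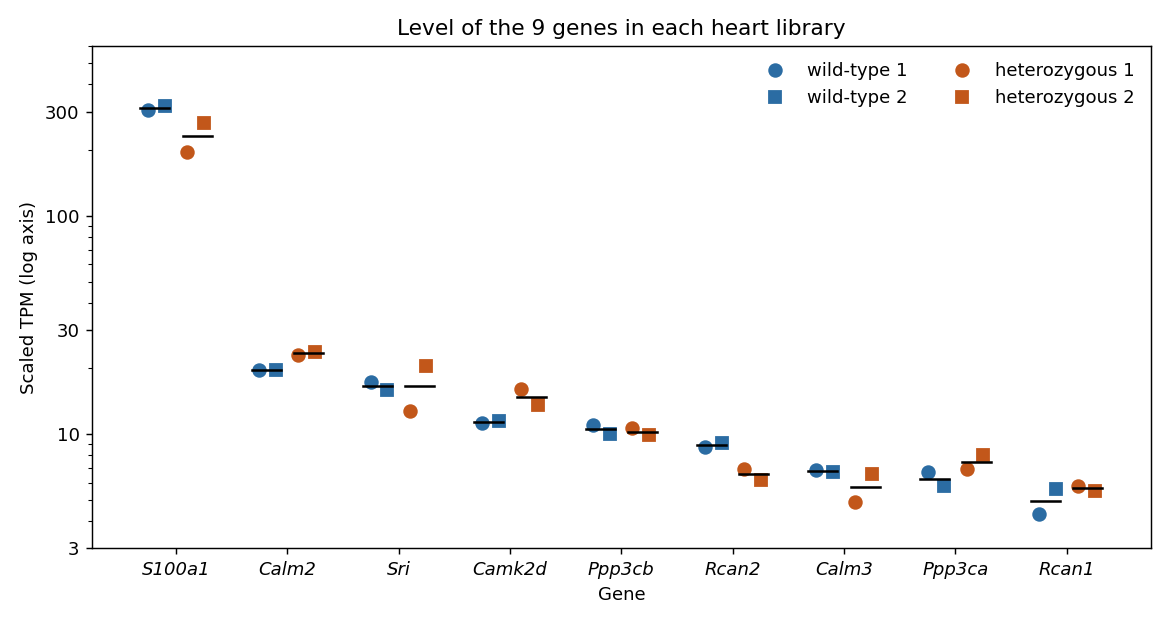
Scaled TPM (log axis) of the 9 genes in each of the 4 heart libraries, with wild-type in blue, heterozygous in orange and short lines at the genotype means (n = 2). S100a1 lies at 196.7 or above in every library and the other genes at 23.9 or below, and the heterozygous pair is widest for Sri (12.8 and 20.4).

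No member of the set passed the threshold between the genotypes. The limma test called 0 of the 9 genes in either direction (adjusted p below 0.05 with a fold over 1.5), where 0.0199% of all tested genes were called lower and 0% higher. At an unadjusted p under 0.05 it gave 1 gene lower, Rcan2, and 0 higher, beside 5.71% and 6.49% of all tested genes. Both heterozygous values were under both wild-type values for 3 genes (Calm3, Rcan2 and S100a1) and above them for 3 (Calm2, Camk2d and Ppp3ca), where all tested genes gave 23.3% and 23.7%. Ppp3cb, Rcan1 and Sri overlapped. The median log2 fold change of the 9 genes was -0.03, beside -0.00 for all tested genes.

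**Figure D2:**
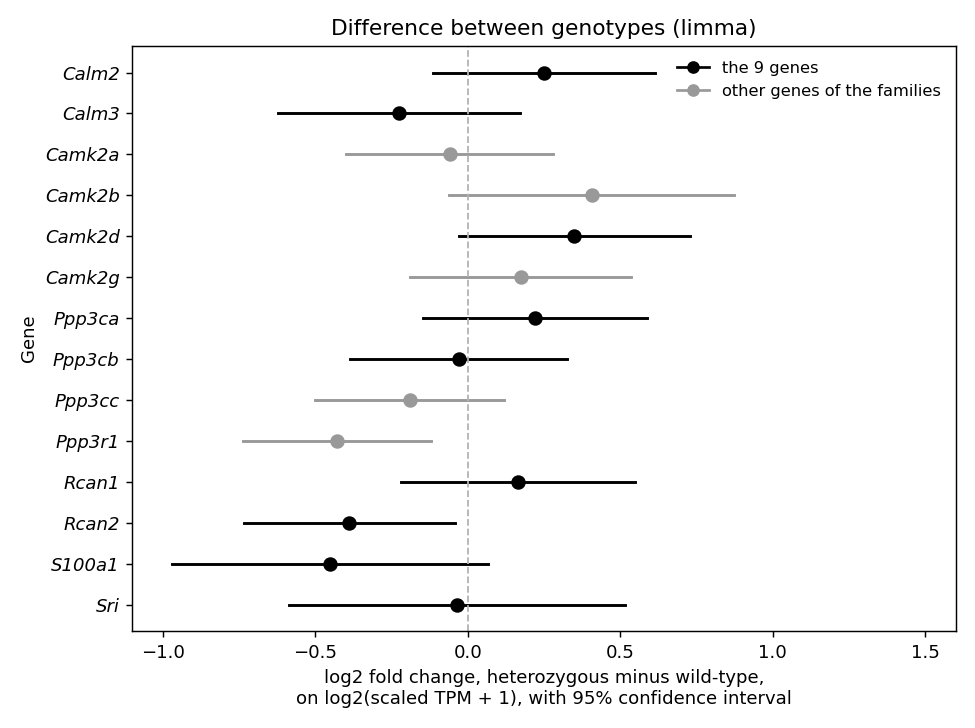
Log2 fold change, heterozygous minus wild-type, of the 9 genes (black) and of 5 further genes of their families (grey), with points for the limma estimate and lines for its 95% confidence interval (2 libraries per genotype). The intervals of Rcan2 and Ppp3r1 lie below 0 and all others cross 0, and no adjusted p is under 0.34.

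Among the calmodulin genes, Calm2 had 19.6 and 19.7 scaled TPM in wild-type and 23.1 and 23.9 in heterozygous hearts. Both heterozygous values were higher, and the gap between the genotypes was wider than that within either. The means were 19.6 ± 0.0643 and 23.5 ± 0.529 (SD, n = 2 each), a log2 fold change of 0.25 (95% confidence interval -0.11 to 0.61, adjusted p = 0.515 from limma). It turned to -0.18 on the deposited TPM and to -0.07 without mt- genes. Relative to the median of all genes it was at 0.17 to 0.27 over the scalings, a distance that they leave nearly fixed. With its copy Gm15720 added, the levels were 19.6, 19.7, 26.0 and 23.9.

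Calm3 had 6.85 and 6.73 scaled TPM in wild-type and 4.89 and 6.53 in heterozygous hearts. It was lower in both heterozygous libraries, though heterozygous 2 lay just under the wild-type values. The log2 fold change was -0.23 (-0.62 to 0.17, adjusted p = 0.581 from limma), and it lay at -0.26 to -0.22 relative to the median of all genes.

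The ratio of Calm2 to Calm3 does not depend on the scaling between libraries, and it was chosen after the values of both genes were seen. It was 2.86 and 2.92 in wild-type and 4.73 and 3.66 in heterozygous hearts. Calm2 was thus more abundant than Calm3 throughout, and by more in both heterozygous hearts, with heterozygous 1 the furthest from the wild-type libraries. The difference of 1.302 between the means was larger than the SD within either genotype (0.0447 and 0.758, n = 2 each). The exact permutation test (two-sided) gave p = 0.33, the smallest that 2 libraries against 2 allow. Without heterozygous 1 the difference was 0.767.

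Over 3 gene families and 5 ratios, 15 such within-library measures were compared, and 11 did not overlap between the genotypes. Of all tested genes, 23.3% were lower and 23.7% higher without overlap. No background was computed for shares and ratios, so the count of 11 is not read as a result about these families. All 11 had an exact p of 0.33 (Benjamini-Hochberg adjusted 0.455), the floor of the design, so none can pass a threshold. Shares within a family are not independent, since 1 can rise only where another falls.

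**Figure D3:**
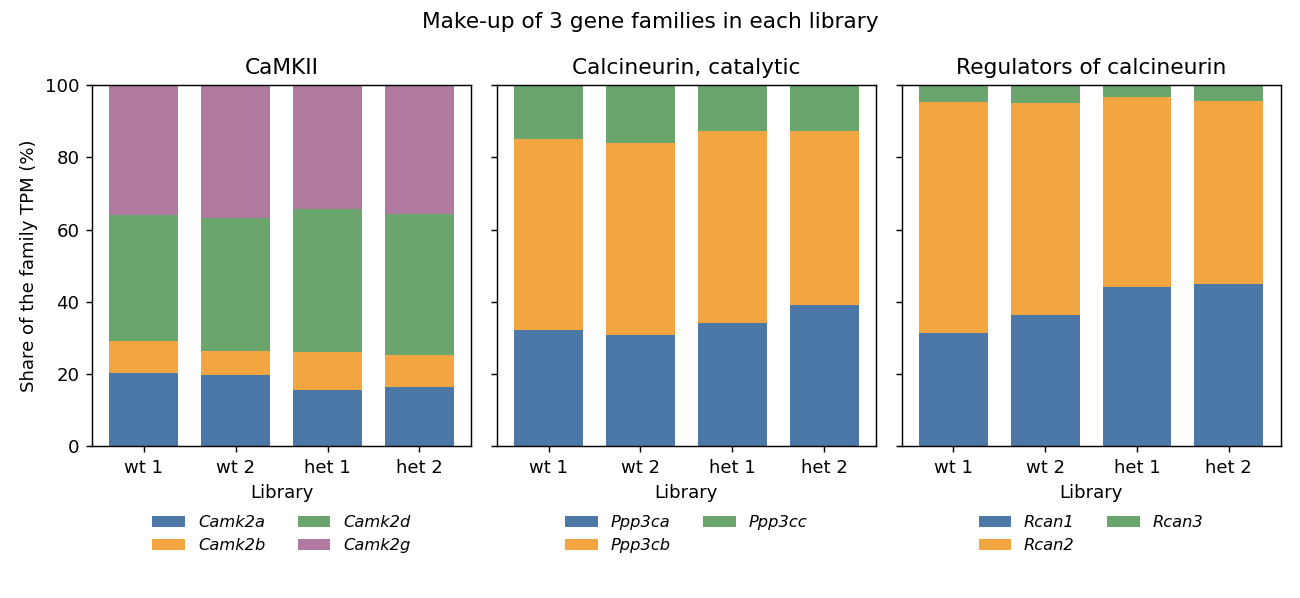
Share of each gene in the summed TPM of its family (%, stacked bars from 0 to 100) in the 4 libraries, for CaMKII, the catalytic subunits of calcineurin and the regulators of calcineurin (wt, wild-type; het, heterozygous). The Rcan1 share is 31.5% and 36.4% in wild-type and 44.0% and 44.9% in heterozygous hearts, and the Camk2d share is 34.9% and 36.9% and then 39.5% and 39.2%.

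Camk2d (chromosome 3, 126596302 to 126846326) encodes CaMKII delta, the main form of the kinase in heart muscle. It had 11.3 and 11.4 scaled TPM in wild-type and 16.1 and 13.5 in heterozygous hearts. Both heterozygous libraries were higher and lay further from each other than the wild-type libraries did. The means of 11.4 ± 0.0939 and 14.8 ± 1.80 (SD, n = 2 each) gave a log2 fold change of 0.35 (-0.03 to 0.73, adjusted p = 0.425 from limma), the highest of the 9 genes. It was -0.07 with TPM as deposited and 0.28 to 0.38 above the median of all genes over the scalings.

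Of the other CaMKII genes, Camk2b, a form better known from neurons, had 2.90 and 2.03 in wild-type and 4.23 and 2.98 in heterozygous hearts, at a log2 fold change of 0.41 (adjusted p = 0.438 from limma). It was 0.22 without wild-type 2 or without heterozygous 1 and 0.08 on the deposited TPM. Camk2g, the gamma form, had 11.6 and 11.4 and then 14.0 and 12.3, at 0.17 (adjusted p = 0.649 from limma), which turned to -0.24 on the deposited TPM and -0.14 without mt- genes and was 0.09 without heterozygous 1. Camk2a, the alpha form, had 6.55 and 6.11 and then 6.39 and 5.70, at -0.06 (adjusted p = 0.880 from limma). Camk2b and Camk2g did not overlap between the genotypes, whereas Camk2a did.

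Camk2d made up 34.9% and 36.9% of CaMKII TPM in wild-type hearts and 39.5% and 39.2% in heterozygous hearts. Camk2a made up 20.2% and 19.7% and then 15.7% and 16.5%. The first share was thus higher and the second lower in both heterozygous hearts, and also lower was the share of Camk2g, at 35.9% and 36.8% and then 34.4% and 35.6%. Its difference of -1.34 percentage points was -0.705 without heterozygous 1. Camk2n1, which encodes a peptide inhibitor of CaMKII, overlapped between the genotypes both in level (log2 fold change 0.07, adjusted p = 0.859 from limma; -0.17 with TPM as deposited, -0.15 with mt- genes removed) and as a ratio to the summed kinase TPM (0.0318 and 0.0382 in wild-type, 0.0256 and 0.0407 in heterozygous hearts; exact permutation p = 1).

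Calcineurin is built of a catalytic subunit and a regulatory, calcium-binding subunit. Ppp3ca (chromosome 3, 136670124 to 136937727), the alpha catalytic subunit, had 6.70 and 5.77 scaled TPM in wild-type and 6.89 and 7.98 in heterozygous hearts. The heterozygous values were higher, but heterozygous 1 stood only just above wild-type 1. The log2 fold change was 0.22 (-0.15 to 0.59, adjusted p = 0.564 from limma), and it turned to -0.17 on the deposited TPM and to -0.08 without mt- genes (0.18 to 0.26 above the median of all genes over the scalings). It was 0.13 without wild-type 2 or without heterozygous 2.

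Ppp3cb (chromosome 14, 20499364 to 20546573), the beta catalytic subunit, had 11.05 and 9.98 in wild-type and 10.7 and 9.89 in heterozygous hearts. The genotypes overlapped, and the log2 fold change of -0.03 had an interval of -0.39 to 0.33 (adjusted p = 0.945 from limma), so that differences within that range could not be told from 0. Relative to the median of all genes it was at -0.09 to -0.02. Ppp3cc, the gamma catalytic subunit, had 3.14 and 3.00 and then 2.56 and 2.58, at -0.19 (adjusted p = 0.554 from limma).

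Ppp3r1, the regulatory subunit, had 3.14 and 3.18 scaled TPM in wild-type and 2.15 and 2.04 in heterozygous hearts. The genotypes were well apart, with a log2 fold change of -0.43 (standard error 0.13), but the adjusted p was 0.341 from limma. The ratio of catalytic (Ppp3ca, Ppp3cb and Ppp3cc) to regulatory subunit TPM (Ppp3r1 with Ppp3r2) was 6.65 and 5.89 in wild-type and 9.34 and 9.93 in heterozygous hearts. Within the catalytic subunits, Ppp3ca supplied 32.1% and 30.8% in wild-type and 34.3% and 39.0% in heterozygous hearts, and the difference of 5.23 percentage points was 2.84 without heterozygous 2. Ppp3cb supplied 52.9% and 53.2% and then 53.0% and 48.3%, which overlapped, and Ppp3cc supplied 15.05% and 16% and then 12.7% and 12.6%. The summed catalytic TPM overlapped on the scaled values (20.9 and 18.7 against 20.1 and 20.4) and were lower in both heterozygous hearts with TPM as deposited (22.7 and 23.6 against 16.4 and 18.5).

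The RCAN genes encode the regulators of calcineurin. Rcan2 (chromosome 17, 43801351 to 44039516) had 8.70 and 9.06 scaled TPM in wild-type and 6.95 and 6.17 in heterozygous hearts. Both heterozygous values were lower by more than either genotype's own spread. The means of 8.88 ± 0.255 and 6.56 ± 0.553 (SD, n = 2 each) gave a log2 fold change of -0.39 (standard error 0.14, interval -0.73 to -0.04). Its adjusted p was 0.376 from limma, the lowest of the 9 genes. Relative to the median of all genes it was at -0.43 to -0.38 over the scalings.

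Rcan1 (chromosome 16, 92391953 to 92470867) had 4.29 and 5.61 in wild-type and 5.81 and 5.47 in heterozygous hearts. The genotypes overlapped, with wild-type 1 the lowest library. The log2 fold change was 0.17 (-0.22 to 0.55, adjusted p = 0.676 from limma), which was -0.21 on the deposited TPM and -0.13 without mt- genes, at 0.14 to 0.20 above the median of all genes. It was 0.0022 without wild-type 1 and 0.32 without wild-type 2.

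Rcan1 held 31.5% and 36.4% of the summed TPM of Rcan1, Rcan2 and Rcan3 in wild-type hearts and 44.0% and 44.9% in heterozygous hearts. Rcan2 held 63.7% and 58.7% and then 52.6% and 50.6%. The difference of 10.5 percentage points for Rcan1 was the largest of the family shares. Rcan3 was under the minimum for testing and held 3.34% to 4.89%. The 3 regulators together stood at 0.653 and 0.823 per unit of catalytic subunit TPM in wild-type and at 0.657 and 0.596 in heterozygous hearts, which overlapped.

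Rcan1 and Rcan2 each have several start sites, and gene-level TPM add the transcripts of all of them. Promoter windows of 300 bases around the start site (RefSeq, GRCm38.p6) were given for 7 of the 9 genes, 10 windows in all, with none for Calm2 and Ppp3ca. The windows of Rcan1, Rcan2 and S100a1 with the most copies of GGAAA are shown, since the internal Rcan1 promoter is a known target of calcineurin through NFAT, which binds that core. Capitals mark GGAAA on either strand (TTTCC on the strand shown), and each sequence runs in the direction of transcription.
Rcan1, chr16:92400029-92400328, minus strand: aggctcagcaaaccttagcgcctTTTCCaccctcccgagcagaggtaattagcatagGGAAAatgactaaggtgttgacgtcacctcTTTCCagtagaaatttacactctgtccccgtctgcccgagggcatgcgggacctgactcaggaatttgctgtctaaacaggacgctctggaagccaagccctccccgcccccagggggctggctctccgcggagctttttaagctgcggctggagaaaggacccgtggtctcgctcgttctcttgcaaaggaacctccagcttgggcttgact
Rcan2, chr17:43801102-43801401, plus strand: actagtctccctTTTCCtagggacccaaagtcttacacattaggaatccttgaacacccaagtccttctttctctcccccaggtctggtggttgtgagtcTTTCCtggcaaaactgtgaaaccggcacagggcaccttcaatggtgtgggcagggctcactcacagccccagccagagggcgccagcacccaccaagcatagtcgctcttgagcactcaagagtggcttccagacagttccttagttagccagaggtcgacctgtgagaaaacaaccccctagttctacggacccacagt
S100a1, chr3:90514281-90514580, minus strand: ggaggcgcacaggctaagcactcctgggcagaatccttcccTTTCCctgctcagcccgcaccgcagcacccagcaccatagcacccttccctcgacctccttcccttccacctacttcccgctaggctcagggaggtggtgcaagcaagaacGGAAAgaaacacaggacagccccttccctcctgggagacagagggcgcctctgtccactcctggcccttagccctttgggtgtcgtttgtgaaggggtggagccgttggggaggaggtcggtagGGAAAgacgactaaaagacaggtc
The internal Rcan1 window holds 3 copies, as does that of S100a1, and the Rcan2 window holds 2. At least 3 copies occur in 9.42% of all 32851 windows of this length, at least 2 in 26.7% and at least 1 in 61.3%. These shares are of single windows, whereas the Rcan1 and Rcan2 windows were picked for the most copies among several. The upstream Rcan1 window and the other 2 windows of Rcan2 hold 0. Ppp3cb has 4 copies, Sri 2, and Calm3 and Camk2d 1 each. The CTCF consensus, searched by its letters on both strands, is in 0 of the 10 windows and in 0.557% of all windows, which says only that these letters are not there. Each of the 7 genes with a window thus carries the motif at least once, whichever way its level differed. The motif does not set apart Rcan2 and S100a1, which were lower in both heterozygous hearts, or Rcan1, whose genotypes overlapped. No binding was measured.

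S100a1 (chromosome 3, 90511034 to 90514392) encodes a calcium sensor that raises the activity of the ryanodine receptor and the calcium pump in cardiomyocytes. It had 306.6 and 319.8 scaled TPM in wild-type and 196.7 and 265.8 in heterozygous hearts. Both heterozygous libraries were lower, and they differed from each other far more than the wild-type libraries did. The means were 313.2 ± 9.30 and 231.2 ± 48.8 (SD, n = 2 each). The log2 fold change of -0.45 (standard error 0.22, interval -0.97 to 0.07, adjusted p = 0.438 from limma) was the largest in size of the 9 genes. Relative to the median of all genes it ranged from -0.55 to -0.37 over the scalings.

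Sri (chromosome 5, 8046078 to 8069379) encodes sorcin, which dampens calcium release from the ryanodine receptor. It had 17.3 and 15.9 in wild-type and 12.8 and 20.4 in heterozygous hearts, where heterozygous 1 was the lowest and heterozygous 2 the highest of all 4 libraries. The means were both 16.6 (SD 1.02 and 5.38, n = 2 each), and the log2 fold change was -0.03 (-0.58 to 0.52, adjusted p = 0.960 from limma). Without heterozygous 1 it was 0.29 and without heterozygous 2 it was -0.35, so the 2 heterozygous hearts lay on opposite sides of the wild-type hearts. Relative to the median of all genes it was at -0.10 to -0.03 over the scalings. The ratio of S100a1 to Sri was 17.7 and 20.1 in wild-type and 15.3 and 13.01 in heterozygous hearts and did not overlap.

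The spread between the heterozygous hearts was wider than that between the wild-type hearts for 7 of the 9 genes, though barely for Ppp3ca (0.188 against 0.186 in log2). The share of all tested genes with a wider heterozygous spread was not computed, so this count is not read as a trait of the set. On the log2 scale heterozygous 2 differed from heterozygous 1 by 0.63 for Sri, 0.43 for S100a1, 0.35 for Calm3 and -0.23 for Camk2d, where the median absolute difference of all tested genes was 0.21 (0.13 between the wild-type hearts). S100a1, Sri and Calm3 were all lowest in heterozygous 1, the library with the lowest sum of cardiomyocyte markers, and the part of that library in their differences was tested only by leaving it out. Without heterozygous 1, the log2 fold changes of S100a1 and Calm3 kept their sign at -0.23 and -0.05, each moving towards 0 by more than 1.5 times.

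**Figure D4:**
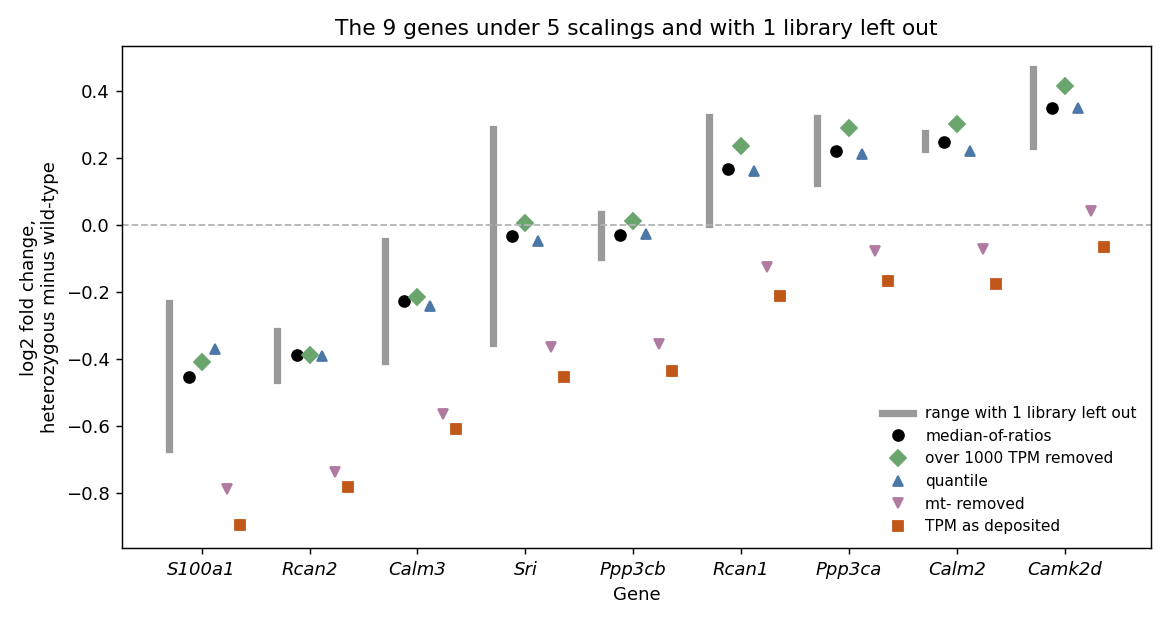
Log2 fold change, heterozygous minus wild-type, of the 9 genes under 5 scalings (symbols), with grey bars for the range over the fits that each leave out 1 library. All 9 genes lie below 0 on the deposited TPM, where the median of all genes is -0.35, and 4 of them (Calm2, Camk2d, Ppp3ca and Rcan1) lie above that median, as they do with median-of-ratios scaling. The scalings differ by a constant per library, so the place relative to the median is nearly the same by construction.

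Around the 9 genes, 6 lists held 64 further genes, of the pathway or only related to it, of which 43 were tested. None was called in either direction, 25 had a negative and 18 a positive log2 fold change, and the median was -0.06. An unadjusted p under 0.05 was given by limma for 3 lower genes (Ppp3r1, S100a4 and Cacnb2) and 1 higher gene (Camk1d). That is 6.98% and 2.33% of those tested, beside 5.71% and 6.49% of all tested genes. Camk1d reached the minimum mean TPM for testing only through its heterozygous values. The genotypes did not overlap for 14 lower and 5 higher genes (32.6% and 11.6%, beside 23.3% and 23.7% of all tested genes), and 24 overlapped.

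**Figure D5:**
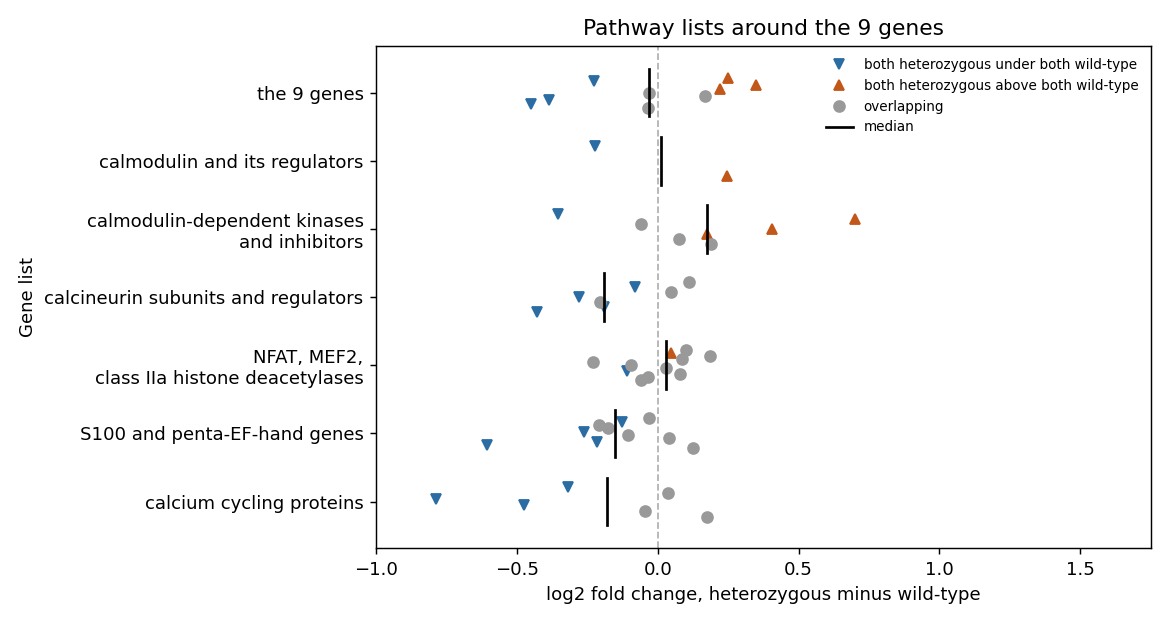
Log2 fold change, heterozygous minus wild-type, of each tested gene (symbols) in the set of 9 and in 6 lists of pathway and related genes. Black lines mark the list medians. Triangles mark genes whose 2 heterozygous libraries lie both under (blue) or both above (orange) the wild-type libraries, and the list medians run from -0.19 to 0.17.

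Of 7 calmodulin-like genes and calmodulin regulators 2 were tested, 1 lower and 1 higher. The smallest p was that of Camta2, a calmodulin-binding transcription activator, at a log2 fold change of 0.25 (adjusted p = 0.535 from limma) that was -0.16 on the deposited TPM, -0.06 without mt- genes and 0.11 without heterozygous 1. Of 13 calmodulin-dependent kinases and inhibitors 7 were tested, 2 lower and 5 higher. Camk1d, a CaM kinase of another class, had 0.423 and 0.976 scaled TPM in wild-type and 1.66 and 1.78 in heterozygous hearts. At this low level the log2 fold change was 0.70 (adjusted p = 0.335 from limma), and 0.45 without wild-type 1. Its mean of 1.165 TPM passed the minimum for testing only through the heterozygous libraries (deposited TPM 0.46, 1.23, 1.36 and 1.61). The difference is therefore not read as a result.

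Of 12 further calcineurin genes 7 were tested, 5 lower and 2 higher. Myoz2, which encodes calsarcin-1, a calcineurin-binding protein of the Z-disc, had 138.5 and 156.3 scaled TPM in wild-type and 112.7 and 129.7 in heterozygous hearts, at -0.28 (adjusted p = 0.550 from limma), which was -0.18 without heterozygous 1. Cabin1, a calcineurin-binding repressor, was at 0.11 (adjusted p = 0.805 from limma; -0.28 with TPM as deposited, -0.19 with mt- genes removed), and its genotypes overlapped.

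Of 13 genes for NFAT and MEF2 transcription factors and class IIa histone deacetylases 11 were tested, 5 lower and 6 higher. The log2 fold changes spanned -0.23 to 0.18 (median 0.03), and 9 of the 11 overlapped between the genotypes, as did 53.0% of all tested genes. Mef2a, Mef2c and Mef2d, muscle transcription factors, were at -0.23, -0.10 and 0.03. Hdac4 and Hdac5, class IIa deacetylases that CaMKII and related kinases phosphorylate, were at 0.10 and 0.05. Mef2d, Hdac4 and Hdac5 turned to -0.39, -0.21 and -0.39 with TPM as deposited. Mef2a had the smallest p of the list (adjusted p = 0.659 from limma), and Nfatc3 was under the minimum for testing.

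Of 13 S100 and penta-EF-hand genes, the protein families of S100a1 and Sri, 10 were tested, 8 lower and 2 higher, with a median of -0.15. S100a4 had 7.71 and 6.48 scaled TPM in wild-type and 3.60 and 5.13 in heterozygous hearts. It was lower in both, with a log2 fold change of -0.61 (adjusted p = 0.341 from limma) that was -0.40 without heterozygous 1. It is a gene of fibroblasts and immune cells more than of cardiomyocytes. The 6 fibroblast markers summed to 55.8 and 78.5 in wild-type and 53.1 and 56.7 in heterozygous hearts, which overlapped. Among them Dcn was lower in both heterozygous hearts (-0.56). Col1a1, Col1a2, Col3a1, Pdgfra and Tcf21 overlapped, at 0.09, -0.13, 0.09, -0.21 and -0.06. The 6 macrophage markers summed to 24.0 and 24.6 in wild-type and 20.5 and 28.4 in heterozygous hearts. The part of either cell type in the S100a4 difference was not tested.

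The 6 calcium cycling genes held 4 lower and 2 higher genes. Cacnb2, a subunit of the L-type channel, had 17.1 and 16.2 scaled TPM in wild-type and 9.79 and 8.70 in heterozygous hearts. The genotypes were far apart, with a log2 fold change of -0.79 (standard error 0.15) and an adjusted p of 0.271 from limma. Pln, which encodes the pump inhibitor phospholamban, had 424 and 419 in wild-type and 264 and 347 in heterozygous hearts, at -0.48 (adjusted p = 0.420 from limma), which was -0.28 without heterozygous 1. Atp2a2, the pump of the sarcoplasmic reticulum, had 303 and 307 and then 229 and 262, at -0.32 (adjusted p = 0.506 from limma). Both were lower in the 2 heterozygous hearts and lowest in heterozygous 1, as S100a1 and the markers Actc1, Myl2 and Myl3 were. The other cardiomyocyte markers overlapped between the genotypes, with Myh6, Tnni3 and Nppa at 0.08, 0.04 and 0.95 and Tnnt2 at -0.18. Ryr2 (-0.04), Cacna1c (0.04) and Slc8a1 (0.18), which encode the release channel, the L-type pore and the sodium-calcium exchanger, overlapped between the genotypes, and the last pair turned to -0.40 and -0.17 with TPM as deposited.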

How the data were processed

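RNA from hearts of mice aged 8 weeks had been sequenced as 4 libraries, 2 per genotype, and the groups follow the genotype in the labels. Nothing in the labels ties a library to a named animal. The terms wild-type hearts and heterozygous hearts therefore stand for libraries, and p values measure the spread between these libraries. The authors used Trim Galore, STAR, RSEM and DESeq2 on mm10 and deposited TPM per gene, rounded to 2 decimals. DESeq2 needs counts, which were not used here. The annotation release is not given in the sources used here. No depth and no counting error can be given.

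Libraries were scaled by median-of-ratios factors over the genes whose mean TPM reached 1, these genes were taken to log2 with a pseudocount of 1, and limma (3.58.1) in R (4.3.3) was fitted with lmFit and eBayes with trend, genotype as the only term, two-sided, with Benjamini-Hochberg adjustment over 10036 genes. Fold changes on this scale understate those of low genes. Shares and ratios were tested with exact permutation over the 4 libraries. Coordinates are from GENCODE M21, to which 55141 identifiers matched without version numbers. Tables were made with Python (3.11.15), and the fit was tested on simulated data.

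The members, lists and named genes were chosen with earlier results of these data known. The rule names the 9 members, Ctcf, genes of the same families, main targets and calcium cycling genes, and the gene with the smallest p of each list. The alternatives changed the pseudocount (0.1 or 5), the minimum mean TPM (none or 5), the scaling (the deposited TPM, mt- genes left out, genes over 1000 TPM left out, quantiles) or the eBayes step (no trend, robust), added the replicate number as a block, or left out 1 library. The ratio of Calm2 to Calm3 and the counts of members whose genotypes do not overlap under other scalings were added after seeing the data. Some genes of the lists are not reported here.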

Additional observations from a re-analysis of the deposited data

How the results depend on the processing

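No member passed the threshold under any alternative, and their adjusted p from limma ranged from 0.0693 (S100a1 without mt- genes) to 0.999. Among all tested genes the 2 called lower became 4 with a pseudocount of 0.1, 0 without a filter, 11 on the deposited TPM, 12 without mt- genes and 4 without genes over 1000 TPM. The 0 called higher became 2 in each of the last 3 and with a robust prior. Leaving out a library gave 4 to 21 lower and 1 to 12 higher. The cause was not tested.

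The libraries share only replicate numbers. Deviations of same-numbered libraries correlated at 0.101, and a replicate block gave 7 lower and 3 higher genes and called no member. On the deposited TPM, 6 members lay lower in both heterozygous libraries and 0 higher, where 67.8% of all tested genes lay lower and 2.32% higher. Without mt- genes the counts were again 6 and 0, where 58.9% lay lower and 4.41% higher. Ppp3ca was among the 6 only on the deposited TPM, and Calm2 only without mt- genes.

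Under the same pair of scalings, which shift the median of all genes, the log2 fold change turned to -0.18 and -0.072 for Calm2, -0.17 and -0.076 for Ppp3ca, -0.21 and -0.13 for Rcan1, -0.29 and -0.21 for Ctcf, -0.24 and -0.14 for Camk2g, -0.17 and -0.15 for Camk2n1, -0.39 and -0.30 for Mef2d, -0.21 and -0.15 for Hdac4, -0.39 and -0.28 for Hdac5, -0.28 and -0.19 for Cabin1, -0.40 and -0.29 for Cacna1c, -0.17 and -0.10 for Slc8a1 and -0.16 and -0.058 for Camta2. Camk2d turned to -0.065 on the deposited TPM alone. Without genes over 1000 TPM, Ppp3cb and Sri turned to 0.011 and 0.0061.

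Leaving out a library turned the sign of some values, with ranges of -0.10 to 0.033 for Ppp3cb, -0.35 to 0.29 for Sri, -0.064 to 0.27 for Ctcf, -0.13 to 0.011 for Camk2a, -0.046 to 0.20 for Camk2n1, -0.49 to 0.029 for Mef2a, -0.21 to 0.27 for Mef2d, -0.10 to 0.29 for Hdac4, -0.069 to 0.30 for Cabin1, -0.16 to 0.07 for Ryr2, -0.061 to 0.13 for Cacna1c and -0.037 to 0.38 for Slc8a1. The difference in the ratio of Camk2n1 to CaMKII ranged from -0.00943 to 0.00575. Of the values of members under the alternatives, 122 kept their direction and side of the threshold and 13 turned. The minimum mean TPM, the eBayes step and the replicate block leave each log2 fold change unchanged by construction. Values under these alternatives could not turn, and no member was called under any setting, so the count is no measure of stability.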
